A study of Mus musculus with 2 samples.

Results

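Hepatocyte identity is set by a small group of DNA-binding proteins, and 9 genes that encode them were followed here in adherent liver cells: Hnf4a, Foxa1, Foxa2, Foxa3, Cebpa, Nr1h4, Nr1i2, Nr1i3 and Ppara. They were taken by symbol from the GENCODE M21 annotation, and none was left out for a low value. All 9 were present among the 38288 genes, named by symbol or else by identifier, that were listed with status OK in both libraries. The cells came from adult male C57/Bl6 mice given carbon tetrachloride (CCl4, a hepatotoxin that causes fibrosis) for 5 weeks. Foxf1fl/fl mice carried floxed Foxf1 alleles without a recombinase and were the controls, and αSMACreER;Foxf1-/- mice also carried a tamoxifen-inducible Cre driven by the smooth muscle actin promoter, which deletes Foxf1 in αSMA-positive cells such as myofibroblasts. The paper describes repeated tamoxifen injections during the CCl4 period to activate the knockout. Liver cells were plated for 2 h, adherent cells were kept, and RNA was pooled into 1 library per genotype, so differences between the genotypes were not tested against replicates and carry no p-value. Foxf1 itself was not analysed here, so its deletion was not checked in these libraries and the genotypes are those of the labels.

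HNF4A is an orphan nuclear receptor that drives genes for lipoproteins, clotting factors and other secreted liver proteins. FOXA1, FOXA2 and FOXA3 are forkhead proteins that open chromatin at liver genes, and C/EBPα (Cebpa) is a leucine zipper factor needed for gluconeogenic and urea cycle enzymes. The other 4 are nuclear receptors that pair with RXR and answer to small molecules: FXR (Nr1h4) to bile acids, PXR (Nr1i2) and CAR (Nr1i3) to drugs and other foreign compounds, and PPARα (Ppara) to fatty acids. Stellate cells and macrophages, which adhere to plastic, are not known for high levels of most of these genes.

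Promoter sequence is shown for the 4 members on which the comparison turns: Hnf4a, the most abundant of the members that were lower by more than 1.5-fold, Nr1h4, Nr1i2, which differed most, and Ppara, which differed in the other direction. Each window is 300 bases around a RefSeq transcription start on GRCm38.p6, read 5′ to 3′ on the strand of the gene, and capitals mark a match on either strand to AGGTCA (a nuclear receptor half-site), GTTAAT (an HNF1 half-site) or TGTTTAC (a forkhead core). The windows lie at chr2:163546905-163547204 (plus strand, the downstream of both Hnf4a starts), chr10:89506609-89506908 (minus strand, at a start inside the Nr1h4 gene), chr16:38294775-38295074 (minus strand) and chr15:85735526-85735825 (plus strand).
Hnf4a: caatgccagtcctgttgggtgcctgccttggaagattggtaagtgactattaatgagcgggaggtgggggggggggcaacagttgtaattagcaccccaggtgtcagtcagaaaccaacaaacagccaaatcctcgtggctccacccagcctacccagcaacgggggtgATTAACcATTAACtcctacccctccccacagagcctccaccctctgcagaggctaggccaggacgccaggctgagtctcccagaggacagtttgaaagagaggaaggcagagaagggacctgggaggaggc
Nr1h4: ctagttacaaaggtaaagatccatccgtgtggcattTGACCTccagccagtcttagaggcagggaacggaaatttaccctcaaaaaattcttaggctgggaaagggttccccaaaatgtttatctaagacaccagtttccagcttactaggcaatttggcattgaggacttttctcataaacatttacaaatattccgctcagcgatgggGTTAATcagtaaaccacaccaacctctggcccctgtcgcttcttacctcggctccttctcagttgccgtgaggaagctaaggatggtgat
Nr1i2: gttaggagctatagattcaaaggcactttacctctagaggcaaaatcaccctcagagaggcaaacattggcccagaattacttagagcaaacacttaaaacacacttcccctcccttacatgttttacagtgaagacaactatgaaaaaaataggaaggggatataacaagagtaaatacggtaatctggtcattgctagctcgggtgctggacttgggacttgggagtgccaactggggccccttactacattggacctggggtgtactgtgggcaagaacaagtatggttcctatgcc
Ppara: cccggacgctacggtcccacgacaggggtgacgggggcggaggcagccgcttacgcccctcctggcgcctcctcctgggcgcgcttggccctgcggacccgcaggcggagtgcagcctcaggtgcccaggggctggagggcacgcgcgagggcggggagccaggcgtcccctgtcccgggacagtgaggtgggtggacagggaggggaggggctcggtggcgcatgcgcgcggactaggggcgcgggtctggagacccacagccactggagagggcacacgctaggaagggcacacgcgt
The Hnf4a window held 2 HNF1 half-sites with a single base between them, and the Nr1h4 window held 1 HNF1 half-site and 1 nuclear receptor half-site. The Nr1i2 and Ppara windows held none of the 3 motifs. Over all 12 windows of the 9 members, 4 held a match, the other two being a forkhead core in Foxa1 and an HNF1 half-site in 1 of the Foxa2 windows. Among 32851 mouse promoter windows of the same length, 16.3% held AGGTCA, 7.10% held GTTAAT and 3.65% held TGTTTAC, so a match is a description of the letters and not evidence of binding. The windows of the members also differed in base composition. Ppara had 30 CpG dinucleotides and a GC content of 74.7%, Cebpa had 29 and Foxa1 had 26, whereas Nr1i2 had 2, Nr1i3 had 3 and Hnf4a had 4, against a median of 7 over all promoters.

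Values are FPKM, reads corrected for transcript length and for the mapped total of each library, which the authors computed for each gene with Cufflinks. The depth estimated from the spacing of low values was about 9824614 reads in Foxf1fl/fl and 11286901 in αSMACreER;Foxf1-/-, but only 51.6% and 51.9% of the low values used lay within 0.1 of a whole read, so read numbers are rough. Differences are αSMACreER;Foxf1-/- minus Foxf1fl/fl on the log2(FPKM + 0.1) scale, after αSMACreER;Foxf1-/- values were divided by 1.02, the median ratio of the genes that reached 1 FPKM in each library, and the pseudocount understates the difference of low genes. Intervals in brackets are approximate 95% counting intervals from the estimated reads and hold no variation between animals. Over the 12861 genes whose mean FPKM reached 1, the median difference was 0.0058, and this moved to 0.21 when the libraries were scaled to an equal FPKM sum.

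The regulators were mostly lower in αSMACreER;Foxf1-/- cells. Of the 9, 6 were at least 1.5-fold lower (Hnf4a, Foxa2, Foxa3, Nr1h4, Nr1i2 and Nr1i3), 1 was at least 1.5-fold higher (Ppara), and Foxa1 and Cebpa were lower by less than 1.5-fold. Their median log2 difference was −0.98. For comparison, 14.3% of the 14469 genes whose mean FPKM reached 0.5, as that of all 9 members did, were at least 1.5-fold lower and 14.9% at least 1.5-fold higher. Low genes scatter more, and between 0.5 and 5 FPKM, where every member but Cebpa lay, 18.9% of 5916 genes were lower and 24.8% higher, with a median of 0.13. The counting interval lay below 0 for Hnf4a, Cebpa, Nr1h4 and Nr1i2 and above 0 for Ppara, and it held 0 for Foxa1, Foxa2, Foxa3 and Nr1i3.

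**Figure D1:**
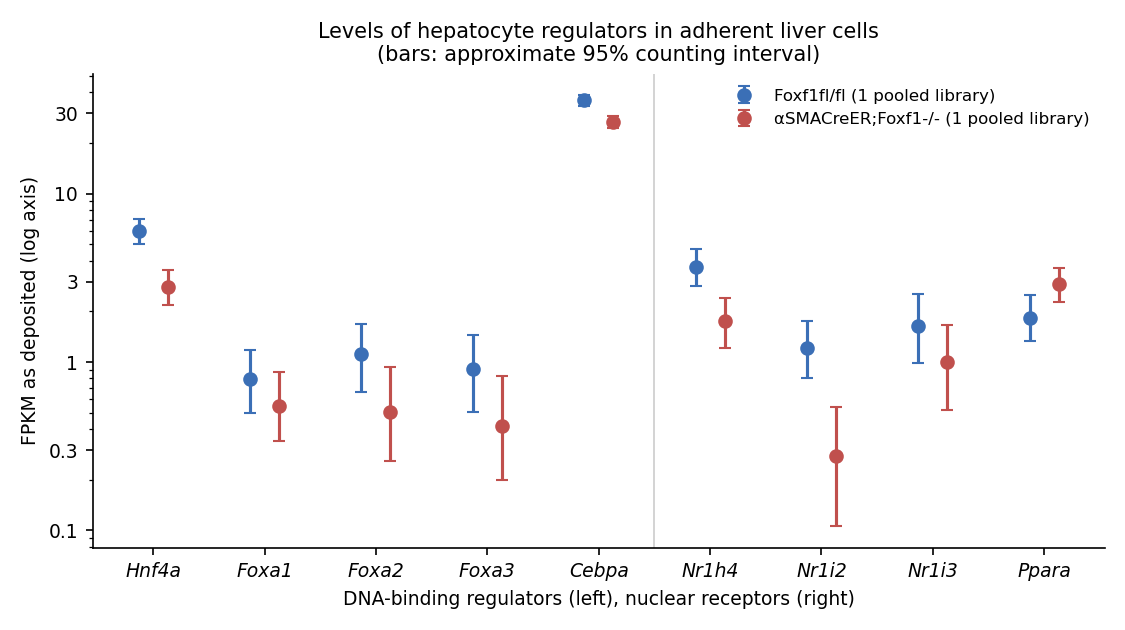
FPKM as deposited (log axis) of the 5 DNA-binding regulators (left) and 4 ligand-activated receptors (right) in the Foxf1fl/fl library (blue) and the αSMACreER;Foxf1-/- library (red), with bars for the approximate 95% counting interval. Cebpa stands above the others in both libraries, and Ppara is the member whose red point lies above the blue one.

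Hnf4a (ENSMUSG00000017950, chr2:163506808-163572910 of mm10, plus strand) was measured at 5.99 FPKM in the Foxf1fl/fl library and at 2.79 FPKM in the αSMACreER;Foxf1-/- library, from about 137 and 73 reads, and paired values are given in this order from here on. The ratio of the scaled FPKM was 2.18-fold, and the log2 difference with the pseudocount was −1.10 [−1.52 to −0.70]. Cebpa (ENSMUSG00000034957, chr7:35119293-35121926, plus strand) had 35.8 and 26.6 FPKM, from about 772 and 659 reads, a log2 difference of −0.45 [−0.60 to −0.30]. Cebpa was thus the best measured member, and its whole counting interval but the lower edge lay within 1.5-fold. It held 67.6% and 72.3% of the summed FPKM of the 9 members, and was 5.98 and 9.16 times the next member. Myeloid cells also express Cebpa, so it does not mark hepatocytes alone.

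The 3 forkhead genes were all near 1 FPKM or lower. Foxa1 (ENSMUSG00000035451, chr12:57540631-57546121, minus strand) had 0.789 and 0.549 FPKM, a log2 difference of −0.48 [−1.25 to 0.38]. Foxa2 (ENSMUSG00000037025, chr2:148042877-148046969, minus strand) had 1.11 and 0.505 FPKM, a difference of −1.03 [−1.95 to 0.038]. Foxa3 (ENSMUSG00000040891, chr7:19013282-19023538, minus strand) had 0.909 and 0.420 FPKM, a difference of −0.98 [−1.98 to 0.18]. Each was lower in the αSMACreER;Foxf1-/- library, but with about 9 to 23 reads a gene none of these differences was larger than counting error at this depth. The upper bound for Foxa2 came to −0.036, and that for Nr1i3 to −0.066, when reads were placed on the longest transcript.

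Among the receptors, Nr1h4 and Nr1i2 were lower beyond counting error. Nr1h4 (ENSMUSG00000047638, chr10:89454234-89533585, minus strand), the bile acid receptor, had 3.67 and 1.76 FPKM, a log2 difference of −1.05 [−1.66 to −0.46]. Nr1i2 (ENSMUSG00000022809, chr16:38248323-38294824, minus strand), the pregnane X receptor that induces Cyp3a genes, had 1.21 and 0.277 FPKM, from about 28 and 7 reads. The ratio of the scaled FPKM was 4.46-fold, and with the pseudocount the log2 difference was −1.82 [−2.83 to −0.87], the lowest of the 9, or −0.80 with a pseudocount of 1. Its interval overlapped those of Hnf4a, Nr1h4 and the Foxa genes, so the order among them cannot be read at this depth.

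Nr1i3 (ENSMUSG00000005677, chr1:171213970-171220701, plus strand), the constitutive androstane receptor that induces Cyp2b genes, had 1.64 and 0.996 FPKM, a log2 difference of −0.69 [−1.74 to 0.30]. This value is uncertain, because 74.9% of the exonic bases of Nr1i3 also lie in exons of Tomm40l on the other strand, the library was not stated to keep strand, and Tomm40l had 13.5 and 10.7 FPKM. No other member shared more than 1.93% of its exonic bases with another gene.

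Ppara (ENSMUSG00000022383, chr15:85734983-85802819, plus strand) had 1.84 and 2.90 FPKM, from about 42 and 76 reads. It was higher in αSMACreER;Foxf1-/- cells, by 1.55-fold as a ratio of the scaled FPKM and by 0.61 [0.065 to 1.15] on the log2 scale with the pseudocount, against a background of 24.8% of genes of similar level that were at least 1.5-fold higher. The value lay just past the threshold, and with the trend over transcript length removed it was 0.58 and no longer past 1.5-fold. No other member was higher in this library. The order of the members changed with it: in Foxf1fl/fl cells Cebpa, Hnf4a, Nr1h4 and Ppara followed each other with counting intervals apart, and Nr1i3, Nr1i2, Foxa2, Foxa3 and Foxa1 came next with intervals that overlapped their neighbours. In αSMACreER;Foxf1-/- cells Cebpa was again first and apart, Ppara came second with an interval overlapping that of Hnf4a, and Nr1i2 was last.

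The labels call these cells stromal, and the members were therefore set beside markers of the cell types a liver suspension can hold. All 29 measured genes for proteins secreted by hepatocytes (Alb for albumin, Ttr for transthyretin and Apoa1 among them) were at least 1.5-fold lower in αSMACreER;Foxf1-/- cells, with a median log2 difference of −1.56 and a range of −2.97 to −0.95, and their summed FPKM was 5422 and 1919. The 13 macrophage markers summed to 13434 and 11138 FPKM, with a median of −0.34. The 12 stellate cell markers summed to 159 and 225 FPKM, of which Dcn alone held 127 and 186. Of the 8 that reached a mean FPKM of 1, 6 lay above 0 and 2 below, with a median of 0.47. Among the defining ones Lrat was at 0.0778 and 0.111 FPKM and Des at 1.70 and 3.29 FPKM (0.89 [0.41 to 1.39]). Acta2, which encodes αSMA and was 1 of those below 0, was at 7.77 and 5.65 FPKM (−0.48 [−0.91 to −0.03]). Of the other marker lists, counting genes that reached a mean FPKM of 1, the 10 endothelial genes had a median of 0.21 and the 7 cholangiocyte genes −0.29. The 8 lymphoid and neutrophil genes had a median of −0.69 that describes neither kind. The B and T cell genes Cd79a (−0.06), Cd3d (0.15), Cd3e (0.27) and Ms4a1 (0.49) were within 1.5-fold, while the neutrophil genes S100a8, with 625 and 256 FPKM (−1.31), and S100a9 (−1.35), and the immunoglobulin gene Ighm, with 577 and 220 FPKM (−1.42), were lower by differences within the range of the hepatocyte list. Ly6g, another neutrophil gene, had 9.82 FPKM in Foxf1fl/fl and was listed at 0 in the other library. In such mixed RNA, fewer cells of a type and less of its RNA per cell cannot be told apart, and the part of hepatocyte or other cell RNA in the differences of the 9 regulators was not tested.

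The regulators did not all differ by as much as the secreted proteins did. Hnf4a, Foxa2, Foxa3, Nr1h4 and Nr1i2 lay within the range of the hepatocyte list, and Foxa1, Cebpa, Nr1i3 and Ppara lay above it. The upper edge of that range was set by Hrg alone (−0.95), and the next highest gene, Itih3, was at −1.18. Hnf4a, Foxa2, Foxa3 and Nr1h4 all lay between Hrg and Itih3. Of the 30 genes of the list, transferrin was not among the 29 measured, because its listed symbol, Tf, matched no entry. Its mouse gene Trf, read below as a target, was at −0.68. With Trf the upper edge would lie at that value, and Nr1i3 (−0.69) would fall just within the range. Only Nr1i2 was below the median of the list, by 0.26 on the log2 scale, and Ppara was 2.17 above that median. A ratio to Alb within each library gives this comparison without any scaling. As a ratio to Alb in thousandths, Hnf4a was at 2.61 and 3.06, Foxa2 at 0.486 and 0.553, Cebpa at 15.6 and 29.2, and Ppara at 0.801 and 3.18. Nr1i2 was at 0.530 and 0.304, the 1 member lower by this measure, while the other 8 were higher. The counting intervals of Foxa2, Foxa3, Nr1h4, Nr1i2 and Nr1i3 held the median of the hepatocyte list. For these 5 genes a difference from that median was not detectable at this depth. Their intervals and that of Hnf4a also held the difference of Alb itself (−1.35), so a difference from Alb was not detectable for them either. The interval of Hnf4a lay just above the median of the list. This depends on the processing, because with the trend over transcript length removed Hnf4a was at −1.29 and that median at −1.34.

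**Figure D2:**
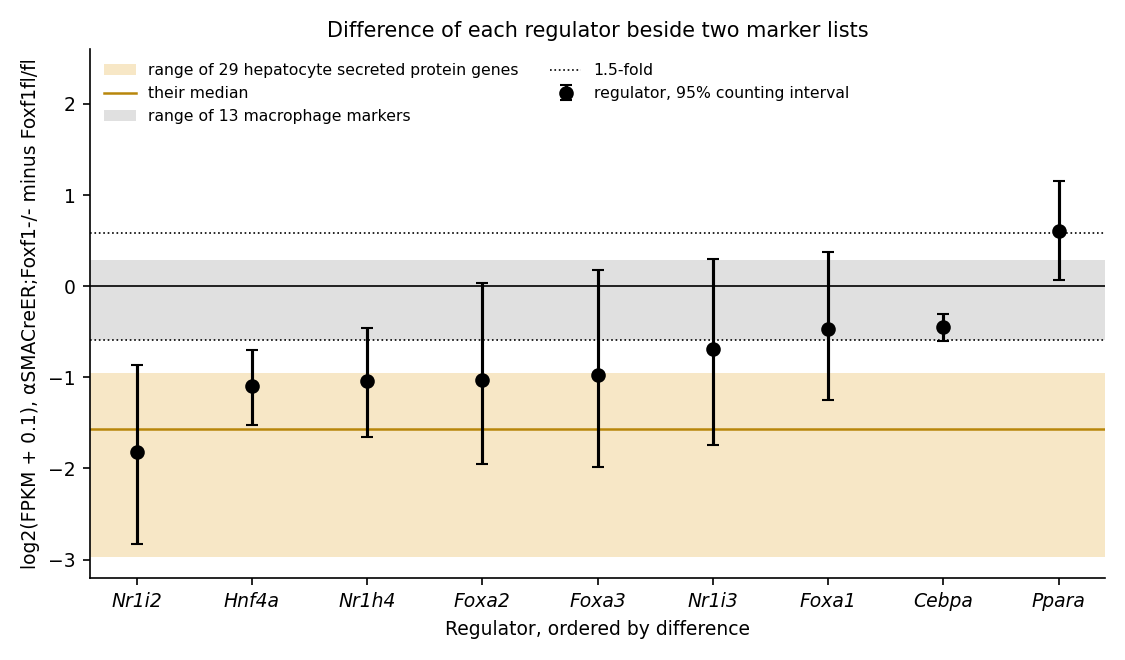
Log2(FPKM + 0.1) difference (αSMACreER;Foxf1-/- minus Foxf1fl/fl) of each regulator, ordered from lowest to highest, with approximate 95% counting intervals, beside the range and median of 29 hepatocyte secreted protein genes (gold) and the range of 13 macrophage markers (grey). Points run from −1.82 for Nr1i2 to 0.61 for Ppara, and 5 of the 9 lie in the gold band, all but Nr1i2 near its upper edge.

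Known targets of the 9 proteins were then read in the same libraries. Of 84 distinct genes that these factors are known to induce, 74 reached a mean FPKM of 1. Of these, 50 (67.6%) were at least 1.5-fold lower in αSMACreER;Foxf1-/- cells and 0 were at least 1.5-fold higher, with a median log2 difference of −0.88. With an equal FPKM sum 41 were lower and 2 higher (Arg1 and F7), and with the length trend removed 47 were lower and the same 2 higher. The background over all genes at this level was 13.2% lower and 12.9% higher, and with scaling to an equal FPKM sum it was 8.72% lower and 21.9% higher. Many of these targets are themselves made mainly in hepatocytes, and several belong to families of near-identical genes (Cyp2b, Cyp2c, Cyp3a, Cyp4a, Gstm) between which reads may be split.

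Targets of HNF4A had the lowest median of the 6 target lists. Of 11 at this level, 9 were lower, with a median log2 difference of −1.40, but 7 with an equal FPKM sum or a pseudocount of 1. Apoa2, a protein of high density lipoprotein, had 782 and 220 FPKM (−1.85), and Apoc3, an inhibitor of lipoprotein lipase, had 220 and 70.7 FPKM (−1.66). F7, the gene of clotting factor VII, was at 7.87 and 11.9 FPKM (0.57), higher by just under 1.5-fold. Of 12 targets of FOXA and C/EBPα, 11 were lower, with a median of −1.05, but 8 with an equal FPKM sum. Pck1, the rate-limiting enzyme of gluconeogenesis, had 48.0 and 16.5 FPKM (−1.56), Saa4 had 7.20 and 1.99 FPKM (−1.83), and Trf, the gene of transferrin, had 881 and 560 FPKM (−0.68). The exception was the urea cycle enzyme gene Arg1, with 230 and 314 FPKM (0.42), which activated macrophages also express.

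Targets of FXR were lower in 6 of 8 cases, with a median of −0.71, but in 3 of 8 with an equal FPKM sum and 4 of 8 with a pseudocount of 1. Abcb11, the bile salt export pump, had 5.18 and 1.53 FPKM (−1.72), Slc27a5, a bile acid CoA ligase, had 28.2 and 9.49 FPKM (−1.58), and Apoc2, the activator of lipoprotein lipase, had 111 and 76.7 FPKM (−0.55). Nr0b2, which encodes the repressor SHP, had 1.58 and 1.13 FPKM (−0.48 [−1.55 to 0.71]). Of genes that active FXR represses, 2 reached a mean FPKM of 1, and both were lower. Cyp8b1, the sterol 12α-hydroxylase of bile acid synthesis, had 2.72 and 0.669 FPKM (−1.90), and Slc10a1, the bile acid uptake transporter NTCP, had 7.41 and 3.87 FPKM (−0.95).

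Genes of drug metabolism that PXR and CAR induce were lower in part. Of 10 PXR targets 6 were lower, with a median of −0.82, but 5 with an equal FPKM sum or a pseudocount of 1. Cyp3a11, the main drug-oxidizing enzyme of mouse liver, had 58.3 and 21.8 FPKM (−1.44), and Sult2a1, a bile acid sulfotransferase, had 8.22 and 2.03 FPKM (−1.99). Por, the reductase that serves all microsomal P450 enzymes, had 229 and 206 FPKM (−0.18), Alas1, the first enzyme of haem synthesis, had 143 and 135 FPKM (−0.11), and the drug exporter genes Abcb1a and Abcb1b had 3.64 and 4.29 FPKM (0.21) and 6.27 and 7.53 FPKM (0.23). Of 13 CAR targets 9 were lower, with a median of −0.89, but 7 with the length trend removed. Cyp2c37 had 5.79 and 2.14 FPKM (−1.42), Cyp2a5 had 12.0 and 4.65 FPKM (−1.37), and the glutathione transferase gene Gstm1 had 181 and 99.8 FPKM (−0.89), whereas Gadd45b, a stress gene, had 514 and 415 FPKM (−0.33) the sulfotransferase gene Sult1d1 had 1.89 and 2.49 FPKM (0.35) and the sulfate donor synthase gene Papss2 had 7.37 and 7.95 FPKM (0.08).

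While Ppara itself was higher, 17 of its 20 targets lay below 0 and 3 above. None of 20 was at least 1.5-fold higher, 9 were lower and 11 were neither, with a median of −0.51. Acaa1b, a peroxisomal thiolase, had 16.9 and 3.36 FPKM (−2.32), and Fabp1, the liver fatty acid binding protein, had 219 and 57.2 FPKM (−1.96). In contrast, Pdk4, a kinase that shuts pyruvate oxidation, had 26.3 and 30.6 FPKM (0.19), Cpt1a, the entry step of mitochondrial fatty acid oxidation, had 18.3 and 20.8 FPKM (0.16), and the lipid droplet gene Plin2 had 765 and 859 FPKM (0.14). The last 3 are active in many cell types, and Acaa1b and Fabp1 are most abundant in hepatocytes and enterocytes.

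**Figure D3:**
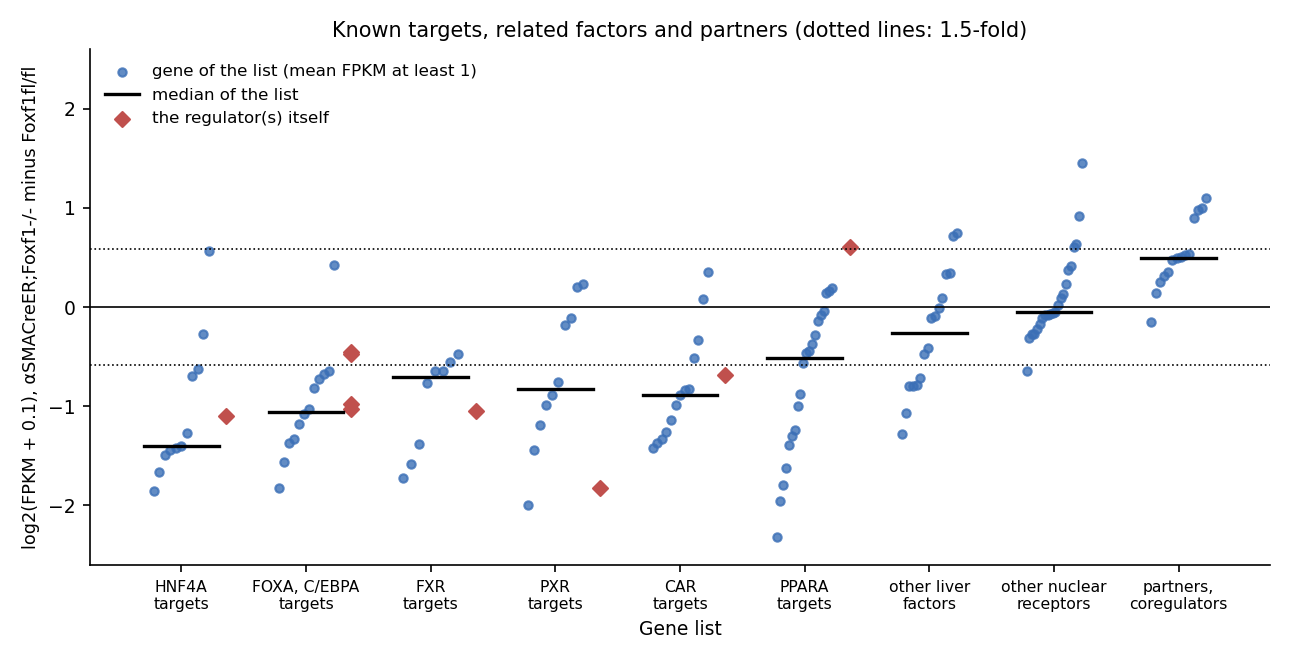
Log2(FPKM + 0.1) difference (αSMACreER;Foxf1-/- minus Foxf1fl/fl) of each gene whose mean FPKM reached 1 (blue points) in 6 target lists and 3 lists of related regulators, with the median of each list (black line) and the regulator of each target list (red diamond). Medians of the target lists run from −1.40 (HNF4A) to −0.51 (PPARα), and the red diamond for Ppara lies above all of its targets.

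The direction of each member held under every way of processing, but the size of most differences moved with it. A change of pseudocount cannot change a direction, and none of these alternatives bears on counting error. The counting intervals of Foxa1, Foxa2, Foxa3 and Nr1i3 held 0. Over the 7 ways of scaling, pseudocount and length correction that were run, Hnf4a stayed between −1.29 and −0.90, Nr1h4 between −1.08 and −0.78, and Nr1i2 between −2.12 and −0.80, and these 3 were at least 1.5-fold lower in all 7. Foxa2 and Foxa3 were past 1.5-fold in 6 of 7, Nr1i3 in 5, and Ppara was at least 1.5-fold higher in 5, with values of 0.44 to 0.81. Foxa1 and Cebpa were past 1.5-fold in 0 of the 7, with ranges of −0.54 to −0.22 and −0.45 to −0.25.

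**Figure D4:**
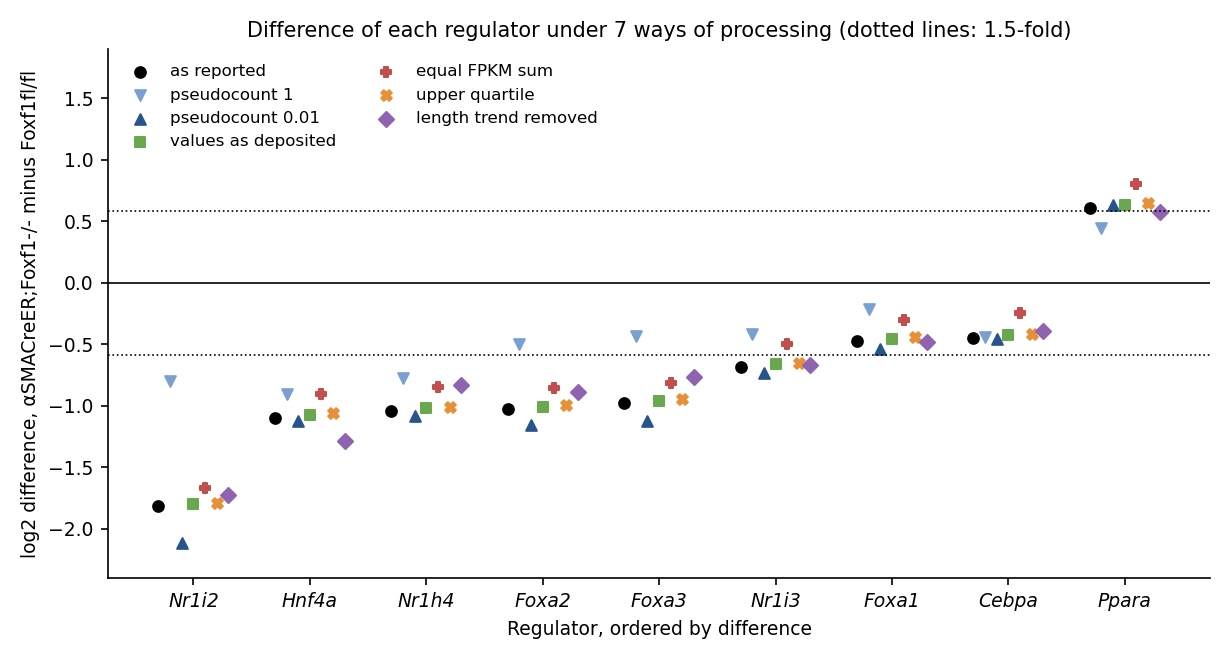
Log2 difference (αSMACreER;Foxf1-/- minus Foxf1fl/fl) of each regulator under 7 ways of processing, with dotted lines at 1.5-fold. Each marker stands for 1 way, and the markers for Ppara are above 0 and those of the other 8 regulators below 0 in all 7.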

How the data were processed

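RNA of adherent liver cells, pooled within each genotype, was made into 1 TruSeq library per genotype and sequenced as single-end reads of 75 bases. Reads were aligned to mm10 with TopHat by the authors, whose deposited values are FPKM from Cufflinks for each Ensembl gene, relative to transcript length and mapped fragments. Versions and the gene annotation used upstream are not given in the sources used here. The fold threshold of 1.5 is that of the study methods, whose DESeq normalization of separate read counts was not repeated, because FPKM are not counts. No read counts were used here, and depth was estimated.

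Of 38320 entries, 36490 had a symbol in GENCODE M21, whose build, GRCm38, is that of mm10. Entries whose status was not OK (3) were left out. Estimated reads used 3645 genes with a single transcript, an assumed fragment length of 200 bases and the median length of protein-coding transcripts. Intervals are exact conditional binomial (Clopper-Pearson) at 95% and cover counting error only. The length trend was removed in 20 groups of transcript length. Filters on lists required a mean FPKM of 1. The members and all lists were chosen with earlier results of these data known. Named in each list were the 2 most abundant genes, the 2 highest and the 2 lowest differences, and the first 3 of each marker list, of which some are given only in counts and 1 is not reported here. Alternatives changed pseudocount, scaling, length correction, filter and threshold. The backgrounds from a mean FPKM of 0.5 and between 0.5 and 5, the interval from the longest transcript and the median without Nr1i3 were added after the data were seen. Promoters are from RefSeq, and all 9 members matched by symbol. The procedure was tested on simulated data. Calculations used matplotlib 3.10.9, scipy 1.17.1, pandas 2.3.3 and numpy 2.4.6 under Python 3.11.15.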

Additional observations from a re-analysis of the deposited data

How the results depend on the processing

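No alternative changed the sign of any of the 9 members, and a change of pseudocount alone cannot. Of the list medians, only that of the other nuclear receptors changed sign, from −0.05 to 0.15 with an equal FPKM sum and to 0.06 with no filter on low values. Of 54 member values under alternatives, 52 stayed within their counting interval, the other 2 being Cebpa at −0.25 with an equal FPKM sum and Nr1i2 at −0.80 with a pseudocount of 1. Of 88 list medians, 84 stayed between the medians of the bounds of their genes. The median of the 9 members lay between −1.08 and −0.44 in every setting run. The count of members at least 1.5-fold lower was 3 instead of 6 with a pseudocount of 1, 3 with only members of mean FPKM at least 1, and 0 with only members of mean FPKM at least 5. The count at least 1.5-fold higher was 0 with a pseudocount of 1, with the length trend removed, at a threshold of 2-fold and with only members of mean FPKM at least 5. The median of RXR partners and coregulators was 0.10 with the length trend removed and 0.69 with an equal FPKM sum, that of FOXA and C/EBPα targets −0.85 with an equal FPKM sum, and that of hepatocyte secreted proteins −1.34 with the length trend removed. No paired analysis was possible because there was only 1 library of each genotype, so no setting leaves out a replicate. Members with under about 30 reads in a library (Foxa1, Foxa2, Foxa3, Nr1i2 and Nr1i3) are limited by depth.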

Other observations

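Other liver-enriched regulators were read in the same way. Of 16 with a mean FPKM of at least 1, 6 were at least 1.5-fold lower in αSMACreER;Foxf1-/- cells and 2 were higher, against 13.2% and 12.9% of all genes at this level, with a median log2 difference of −0.26. With the length trend removed 4 were lower and 0 higher. With an equal FPKM sum 4 were lower and 2 higher, against 8.72% and 21.9% of all genes with that scaling, and the median was −0.06. With a pseudocount of 1 the counts were also 4 and 2. Creb3l3, a regulator of the fasting response, had 5.09 and 2.08 FPKM in Foxf1fl/fl and αSMACreER;Foxf1-/- cells (−1.28). The acute-phase factors Cebpb, with 678 and 401 FPKM (−0.78), and Cebpd, with 165 and 102 FPKM (−0.72), are also abundant in macrophages. With the length trend removed Cebpb was at −0.49, no longer past 1.5-fold, and Cebpd at −0.81. Srebf1, the regulator of fatty acid synthesis, had 24.6 and 42.1 FPKM (0.75), and Tef, a clock output factor, had 7.13 and 12.0 FPKM (0.72), neither past 1.5-fold with the length trend removed.

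Nuclear receptors that are not liver-restricted were centred near 0. Of 22, 4 were at least 1.5-fold higher, a share near the 12.9% of all genes, and 1 was lower, with a median of −0.05, which was 0.15 with an equal FPKM sum. With the length trend removed, 1 was higher. Nr1h2 (LXRβ) had 86.2 and 88.9 FPKM (0.02), Nr4a1 had 125 and 105 FPKM (−0.28) and Esrra had 22.6 and 18.6 FPKM (−0.31). The largest differences were Nr2c2 (TR4), with 2.01 and 5.80 FPKM (1.46 [0.97 to 1.96]), Rora, with 1.97 and 3.88 FPKM (0.91), and the clock repressor Nr1d1, with 28.7 and 18.6 FPKM (−0.65). Rxra, the partner of FXR, PXR, CAR and PPARα, had 18.3 and 16.8 FPKM (−0.15).

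Of 14 partners and coregulators of these receptors, 4 were at least 1.5-fold higher, 0 were lower and 10 were neither, against 12.9% higher and 13.2% lower over all genes, with a median of 0.50. The acetyltransferase genes Crebbp, with 4.08 and 9.03 FPKM (1.10), and Ep300, with 4.37 and 9.01 FPKM, differed most, beside Ncor1 with 24.5 and 34.8 FPKM (0.48) and Ncoa3 with 19.0 and 24.1 FPKM (0.32). The transcripts named here are long. With the trend over transcript length removed the median of the list was 0.10 and 1 gene was at least 1.5-fold higher. With an equal FPKM sum 9 were higher, but with that scaling 21.9% of all genes at this level were higher and 8.72% lower.

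Among 66 of these related regulators, those whose log2 levels in both libraries lay nearest to the median of the 9 members included Nr0b2 (SHP, a repressor induced by FXR), with 1.58 and 1.13 FPKM at a distance of 0.171, and Klf15, with 1.42 and 0.790 FPKM at 0.358. In both libraries the median level of the members was that of Nr1i3, whose value is uncertain. Its difference (−0.69) was smaller than the median difference of the 9 members (−0.98). With 1 library per genotype, this is a likeness to that level in 2 libraries only.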
